A study of Danio rerio with 30 samples.

Results

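The genotype by neomycin interaction asks which transcripts responded differently to hair cell killing when isl1a was mutated. For each gene it is the change from homeostasis to 3 h after neomycin in isl1a mutants minus the same change in their siblings, as a log2 value. A positive interaction means a larger rise or a smaller fall in mutants, and a negative one the reverse. The comparison uses the 12 RNA-seq samples out of 30 in the series, taken as all samples of 4 groups of 3, and the remaining 18 are ATAC-seq samples that were not analysed here. Every group consists of mCherry-positive cells sorted from zebrafish larvae at 5 days post fertilization. All carried the she:mCherry reporter, and the labels give the tissue as posterior lateral line and the cells as neuromast cells. The larvae were labelled isl1apsi97 mutant or isl1apsi97 sibling and were either in homeostasis with no drug or treated with 300 uM neomycin for 30 min, washed and left to recover for 3 h. The sample titles carry the tag isl1-cpf1, where Cpf1 is a genome-editing nuclease, and the labels do not say what the psi97 allele changes, whether siblings were wild type or heterozygous, or how many larvae entered a sample.

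Neuromasts are the sense organs of the lateral line, with mechanosensory hair cells in the centre, support cells around and beneath them, and mantle cells at the rim. Neomycin, an aminoglycoside antibiotic, enters hair cells and kills them quickly, and support cells then divide and differentiate to replace them. isl1a encodes a LIM-homeodomain transcription factor.

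The gene listed as ISL1, taken as isl1a because isl1b has its own entry, was read in every sibling library and almost not in mutants. Its counts were 3351, 5607 and 5189 in siblings in homeostasis and 3996, 6634 and 4591 in siblings at 3 h. Mutants had 0, 1 and 0 counts in homeostasis and 6, 35 and 0 at 3 h, so every library matched its genotype label. Its interaction did not pass the test (adjusted p = 0.45), and no fold is given on such counts. Gene counts came to 23918226 to 30354161 per library. One library differed most from the rest. Sibling replicate 2 at 3 h had a TMM scaling factor of 0.756, where the others lay between 0.916 and 1.1, and a mean correlation with its group of 0.925, below that of all other libraries. Mutant replicate 2 at 3 h deviated in the same direction but less, with a factor of 0.916 against 1.04 and 1.03 in its group. On the second principal component (20.4% of the variance) it lay at 5.13 against 48.5 and 48.9. Sibling replicate 2 at 3 h lay at -129 against -20.6 and -35.1. The mutant library's mean correlation with its group was 0.967, against 0.97 and 0.971. Every result was computed with all 12 libraries and again without sibling replicate 2 at 3 h, the library that differed most. The study calls its samples biological triplicates without naming clutches, and each p-value therefore covers the spread among these samples, which may be technical.

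Of 22000 genes tested, 23 had a called interaction (0.105%), at an adjusted p under 0.05 by edgeR's quasi-likelihood test. In 22 of them (0.1% of tested genes) the value was positive, and in 1, ca4a, it was negative (0.00455%). The interaction genes include a prostaglandin synthase, an actin regulator, a stress-response phosphatase subunit, an apoptosis inhibitor and a Toll-like receptor pathway inhibitor. The smallest value called was 1.53 on the log2 scale. DESeq2's Wald test on the same counts called 271 positive and 64 negative interactions. The median standard error of an interaction over all genes was 0.47, against 0.33 for the sibling response and 0.34 for the mutant response.

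The 22 positive values had several forms. In 8 genes the transcript fell in siblings and rose in mutants, in 7 it fell in siblings and was not called in mutants, and in 5 it was not called in siblings and rose in mutants. IRAK3 rose in both genotypes and coro2ab fell in both. In median over these 22 genes, the sibling response was -0.97 and the mutant response 0.84. In homeostasis 15 of the 22 did not differ detectably between genotypes, 6 were lower in mutants and 1 was higher, with a median difference of -0.18. Over all tested genes 3.57% differed between genotypes in homeostasis, 1.72% lower and 1.85% higher in mutants. At 3 h the mutants were above siblings in 22 of 22, with a median difference of 1.69, where 9.78% of all genes differed (4.9% higher and 4.88% lower). These medians describe genes that the interaction itself selected and are not further evidence for it.

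**Figure D1:**
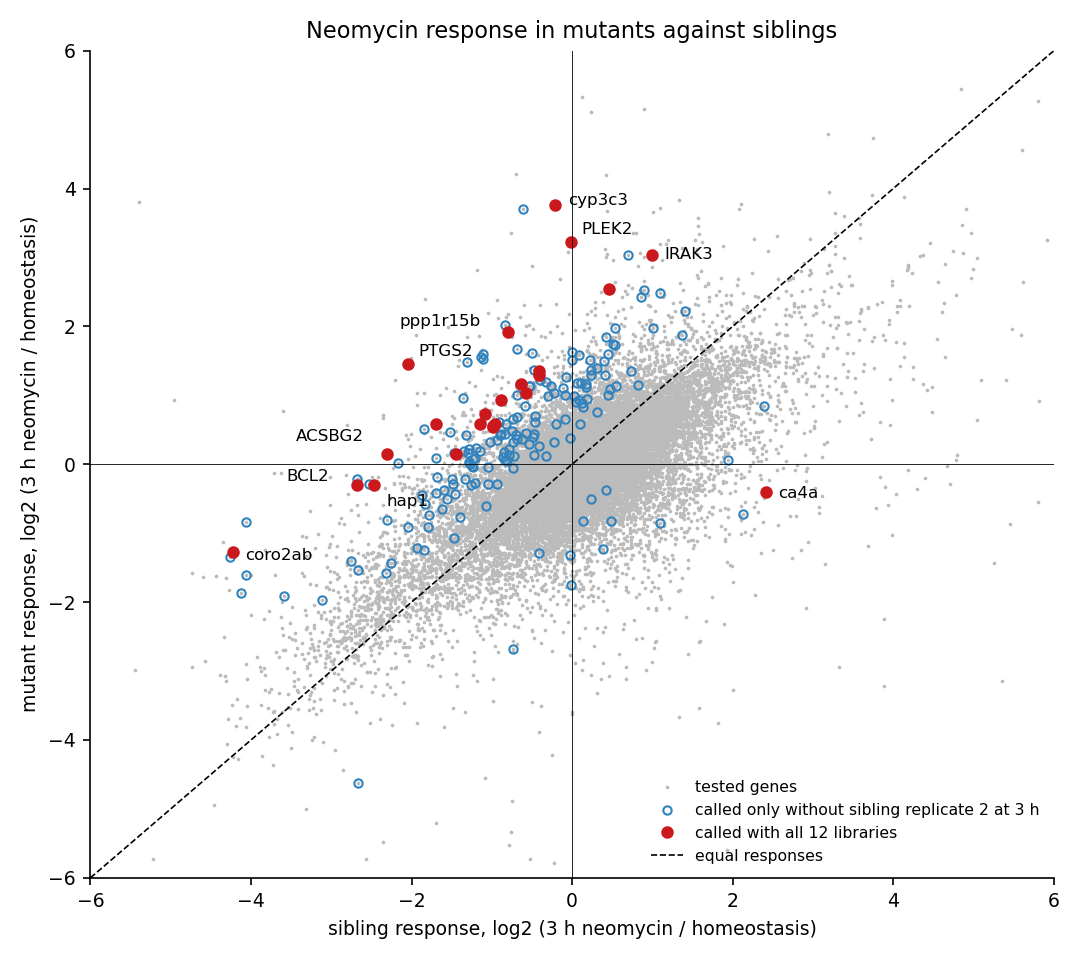
Response to neomycin in mutants (y axis) against siblings (x axis), each as log2 of 3 h over homeostasis, with 1 point for each of 22000 tested genes and a dashed line where both responses are equal. The 22 positive interactions with all 12 libraries (filled) lie above the line and ca4a lies below it. Open circles are the further genes called without sibling replicate 2 at 3 h, and 18 genes fall outside the plotted range.

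The interaction genes sat on top of responses that were largely shared. Siblings had 4831 called genes (22% of those tested), with 2464 up (11.2%) and 2367 down (10.8%). Mutants had 3634 (16.5%), with 1530 up (6.95%) and 2104 down (9.56%). Of these, 2468 were called in both genotypes, 11 of them in opposite directions. The direction was the same for 2457, which is 50.9% of the sibling list and 67.6% of the mutant list. Across genes the responses had a Pearson r of 0.671 and a Spearman rho of 0.619, where genes are not independent replicates. Genes called in siblings had a median sibling response of 1.35 in size, and the mutant response of the same genes, taken in the sibling direction, had a median of 0.94. Genes called in mutants had the reverse order, with a median of 1.28 in mutants and 1.15 in siblings. Each set was selected by calls in the genotype with the larger median, so these orders do not measure which genotype responded more.

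PLEK2, PTGS2 and ACSBG2 were called with all 12 libraries and again whichever of the 12 libraries was left out. PLEK2 (ENSDARG00000012789) encodes pleckstrin 2, a membrane-associated regulator of the actin cytoskeleton. It read 10.3, 9.53 and 12.1 CPM (gene counts scaled to library size with TMM factors) in siblings in homeostasis and 11.7, 7.07 and 12.9 at 3 h. In mutants it read 19.9, 18.7 and 17.7 in homeostasis and 207, 160 and 159 at 3 h. The sibling groups thus overlapped, while every mutant library at 3 h was far above all 9 others. The mutant response was 3.22 and the sibling response -0.01, giving an interaction of 3.23 ± 0.32 (SE, adjusted p = 0.003, at most 0.025 with any 1 library left out).

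PTGS2 (ENSDARG00000010276, a symbol that another gene ID shares) encodes an inducible cyclooxygenase that makes prostaglandin precursors. Siblings went from 16.5, 31.3 and 24.4 CPM in homeostasis to 6.1, 6.19 and 5.11 at 3 h. Mutants went from 26, 39.7 and 23.5 CPM to 80, 80.4 and 83.5. Homeostasis values overlapped between genotypes, and at 3 h the transcript fell in one genotype and rose in the other. The interaction was 3.50 ± 0.36 (SE, adjusted p = 0.003), made of a sibling response of -2.05 and a mutant response of 1.45.

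ACSBG2 (ENSDARG00000004094), an acyl-CoA synthetase that activates fatty acids, behaved in another way. Siblings dropped from 92.7, 97.5 and 95 CPM to 22.9, 14.8 and 20.1, a response of -2.30. Mutants started lower, at 51.7, 52.7 and 43.9 CPM, and stayed at 56.8, 50.6 and 56.9 (response 0.15, adjusted p = 0.65). The interaction was 2.45 ± 0.26 (SE, adjusted p = 0.003), and mutants were below siblings in homeostasis (-0.94, adjusted p = 0.013) and above them at 3 h (1.51, adjusted p = 0.00054).

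**Figure D2:**
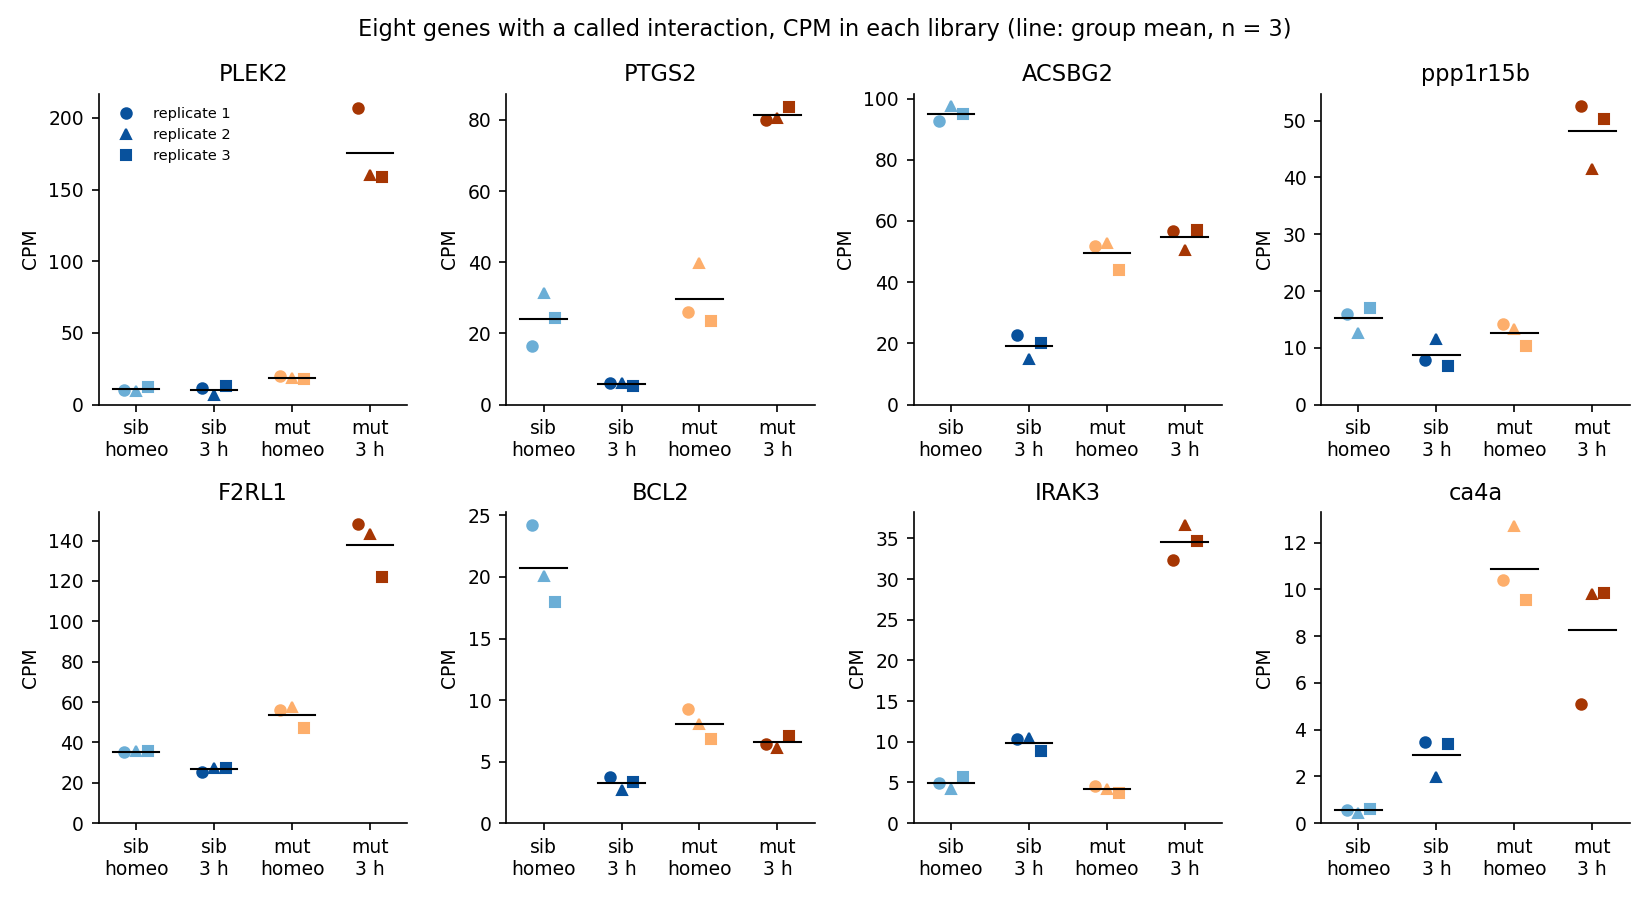
CPM of 8 called genes in each library by group (sib, sibling; mut, mutant; homeo, homeostasis; 3 h, after neomycin), with replicate numbers as marker shapes and a line at the mean of 3. In PLEK2, PTGS2, ppp1r15b, F2RL1 and IRAK3 the 3 mutant libraries at 3 h stand above all others, in ACSBG2 and BCL2 the sibling libraries fall while the mutant ones stay close to their level in homeostasis, and ca4a starts high in mutants.

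Other genes rose after neomycin in mutants while siblings fell or did not change detectably. The gene ppp1r15b encodes a regulatory subunit that directs a phosphatase to the translation factor eIF2 and so reverses the integrated stress response. It read 15.9, 12.7 and 17.1 CPM and then 7.83, 11.6 and 6.83 in siblings, against 14.2, 13.4 and 10.4 and then 52.5, 41.5 and 50.3 in mutants. Every mutant value at 3 h was more than any other value (interaction 2.72 ± 0.33 SE, adjusted p = 0.010). It was called in 9 of 12 fits with 1 library left out, and lost when a treated mutant library (replicate 1 or 3) or the third mutant library in homeostasis was missing (adjusted p up to 0.056).

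F2RL1 (ENSDARG00000077540, a shared symbol) encodes a protease-activated receptor. Siblings held 35.3, 35.6 and 35.5 CPM in homeostasis and 25.4, 27.2 and 27.4 at 3 h. Mutants went from 56.1, 57.5 and 47.1 to 148, 143 and 122 CPM, above every other library. The interaction was 1.77 ± 0.22 (SE, adjusted p = 0.010), lost when treated mutant replicate 1 or untreated mutant replicate 3 was missing (adjusted p up to 0.064).

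IRAK3, which encodes an inhibitor of Toll-like and interleukin-1 receptor signalling, rose in both genotypes and more in mutants. Siblings went from 4.91, 4.24 and 5.66 CPM to 10.4, 10.5 and 8.83, a response of 1.00. Mutants went from 4.62, 4.23 and 3.71 to 32.4, 36.6 and 34.7, a response of 3.04. Homeostasis levels overlapped and the levels at 3 h did not (interaction 2.04 ± 0.27 SE, adjusted p = 0.017, called in 4 of 12 fits with 1 library left out and up to 0.092).

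The largest called interaction was that of cyp3c3, a cytochrome P450 gene, and it was also the most variable. Mutants rose from 2.22, 3.97 and 3.26 CPM to 23.7, 64.1 and 40.7, and siblings held 2.98, 2.91 and 3.72 and then 2.13, 4.58 and 1.66. All mutant libraries at 3 h were above the rest, but they spread widely (interaction 3.97 ± 0.60 SE, adjusted p = 0.040, up to 0.16 with 1 library left out). GTPBP1 (ENSDARG00000053467, a shared symbol), a GTP-binding protein, had a mutant response of 1.29 and a sibling response of -0.41, which was not called. The interaction of rapgef3, which encodes a cyclic AMP-activated exchange factor for Rap, was 1.82 with responses of 1.17 and -0.64. The interactions of GTPBP1 and rapgef3 each had an adjusted p of 0.046, and up to 0.18 with 1 library left out. Each was called in 2 of 12 such fits.

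Among genes that fell in siblings, several hardly moved in mutants. BCL2, the inhibitor of mitochondrial apoptosis, went from 24.2, 20.1 and 18 CPM to 3.73, 2.66 and 3.31 in siblings, a response of -2.68. Mutants had 9.27, 8.05 and 6.87 CPM in homeostasis and 6.42, 6.14 and 7.1 at 3 h (response -0.30, adjusted p = 0.41). Mutants thus started below siblings and ended above them (interaction 2.38 ± 0.31 SE, adjusted p = 0.015, called in 6 of 12 fits with 1 library left out and up to 0.09).

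The same order appeared in hap1, whose human counterpart encodes the huntingtin-associated protein. It fell in siblings from 25 ± 3.18 to 4.5 ± 0.593 CPM (SD, n = 3) and read 13.4 ± 1.79 and then 10.9 ± 1.66 CPM in mutants. Its interaction was 2.17 ± 0.30 (SE, adjusted p = 0.018, up to 0.12). PRDM1, a zinc finger transcriptional repressor, had 294, 314 and 309 CPM in siblings in homeostasis and 120, 105 and 115 at 3 h. Mutants had 148, 206 and 159 and then 175, 224 and 171 CPM, with groups that overlapped. The interaction of PRDM1 was 1.59 ± 0.25 (SE, adjusted p = 0.046), and it was called in 1 of the 12 fits with 1 library left out.

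The coronin gene coro2ab, of an actin-binding family, fell in both genotypes. Siblings dropped from 12.8, 10.1 and 6.5 CPM to 0.5, 0.698 and 0.372, and mutants from 3.17, 2.9 and 3.01 to 1.61, 1.07 and 1.1. Mutant levels lay between the sibling levels before and after neomycin, and the interaction was 2.96 ± 0.48 (SE, adjusted p = 0.046). Its call rests on individual libraries, with an adjusted p of up to 0.18 when 1 was left out.

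The remaining called genes had interactions between 1.53 and 2.28. BAG3, a co-chaperone of Hsp70 that acts in selective autophagy, went from 9.14 ± 0.597 CPM (SD, n = 3) to 4.13, 4.67 and 6.05 CPM in siblings and from 9.47 ± 0.916 to 16.1, 16.9 and 21.6 CPM in mutants. All sibling libraries fell below the homeostasis range and all mutant libraries rose above it (interaction 1.83 ± 0.30 SE, adjusted p = 0.047). RHPN2 and SLC38A3 (ENSDARG00000027065, a shared symbol), an amino acid transporter, had interactions of 1.55 and 1.54 (adjusted p = 0.046 each). Each was called in 1 of 12 fits with 1 library left out (adjusted p up to 0.18). Genes named outside the rule, chosen after their values were seen, were UGCG, a glucosylceramide synthase (1.82), the polarity gene pard6a (1.62), ptpdc1a (1.73), tmcc1b (1.53), the calcium pump gene atp2b3b (2.28) and si:ch211-129c21.1 (2.09). Of these ptpdc1a, tmcc1b and atp2b3b were not called in mutants, and si:ch211-129c21.1 was not called in siblings. In homeostasis, si:ch211-129c21.1 was the 1 gene of the 22 that mutants already had at a higher level, by 1.48. Apart from PLEK2, PTGS2 and ACSBG2, each of the 23 lost its call without at least 1 library. Of the 23, only 6 were called in at least 6 of the 12 fits with 1 library left out. All 23 kept their sign in every such fit, but these fits share most libraries, so this is not independent support.

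The negative interaction belonged to ca4a, a gene of the carbonic anhydrase family. Siblings rose from 0.577, 0.456 and 0.621 CPM to 3.46, 1.96 and 3.38. Mutants had 10.4, 12.7 and 9.53 CPM in homeostasis and 5.1, 9.8 and 9.86 at 3 h. Mutants were above siblings at both times, by 4.29 in homeostasis and by 1.49 at 3 h, and the mutant response of -0.40 was not called. The interaction was -2.81 ± 0.46 (SE, adjusted p = 0.047). It was called in 1 of the 12 fits with 1 library left out and not with DESeq2 size factors (adjusted p = 0.056).

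Leaving out sibling replicate 2 at 3 h changed how many interactions could be called. Of 22615 genes tested, 190 were called (0.84%), 173 of them positive (0.765%) and 17 negative (0.0752%), and all 23 calls of the full comparison were among them. The sign of all 190 was the same with all 12 libraries, but both fits share every other library, so this is not independent support. The median interaction of the 173 positive genes was 1.41 without that library and 1.28 with it, and that of the 17 negative genes was -1.69 and -1.75. The spread shrank, with a biological coefficient of variation of 26.1% instead of 32.3% and a median standard error of 0.38 instead of 0.47. The library left out was the one that differed most in these same data. The smaller spread and the added calls are therefore not further evidence for the interactions. The treated sibling group also has a library fewer in this fit. Leaving out any other single library gave between 3 and 17 positive calls. When mutant replicate 2 at 3 h was left out together with sibling replicate 2 at 3 h, an alternative chosen after seeing the data, 220 positive and 16 negative genes were called, which included 169 of the 190.

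**Figure D3:**
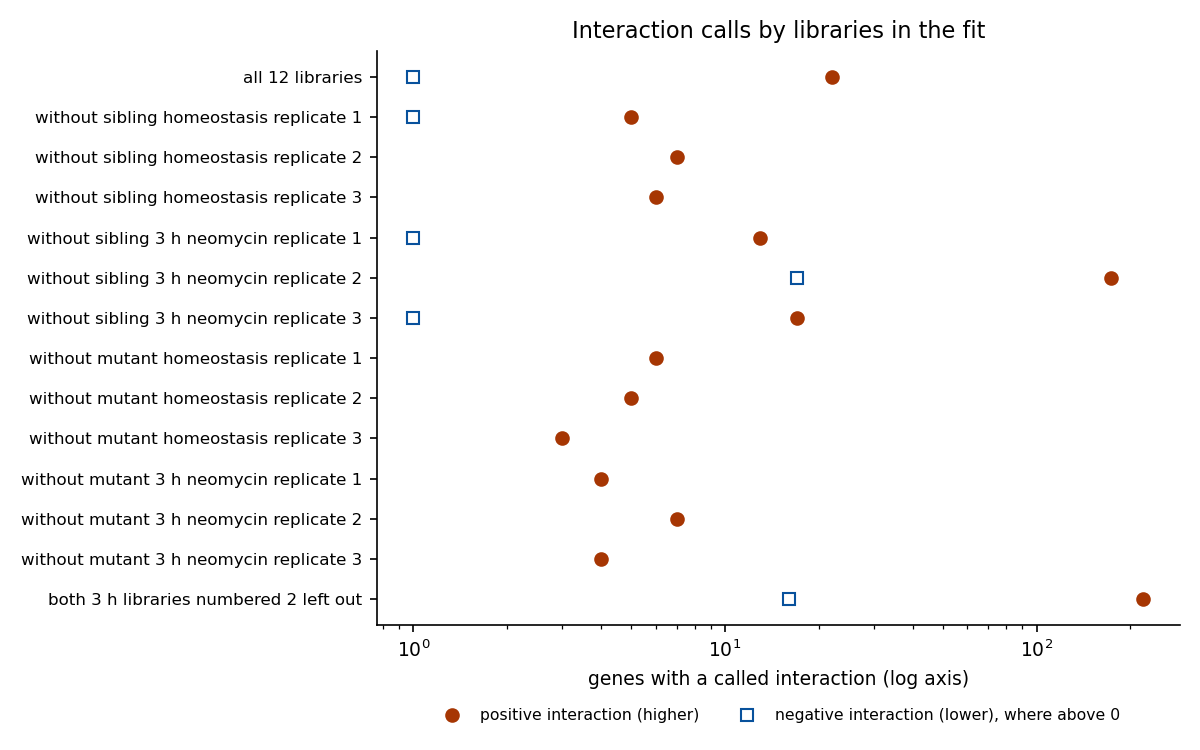
Number of genes with a positive (filled circles) or negative (open squares, drawn where above 0) called interaction, on a log axis, for the fit of all 12 libraries, each fit without 1 library, and the fit without both 3 h libraries numbered 2. The count is 22 positive genes with all libraries and 173 without sibling replicate 2 at 3 h.

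Both responses were called for more genes without that library, 5035 in siblings (22.3%; 9.2% up and 13.1% down) and 6147 in mutants (27.2%; 12.9% up and 14.3% down). Of these 3531 were called in both genotypes, 3490 in the same direction and 41 in opposite ones.

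The 173 positive genes had the same range of forms. In 61 the transcript fell in siblings and was not called in mutants, in 51 it was not called in siblings and rose in mutants, and in 30 it fell in siblings and rose in mutants. In 23 it fell less in mutants and in 8 it rose more. Genotypes were not called different in homeostasis for 103 of the 173, 49 were lower in mutants and 21 higher. Over all genes 9.19% differed in that comparison, 5.27% lower and 3.93% higher. At 3 h, mutants were higher in 149 and lower in 0, and 24 were not called, where 13.1% of all genes differed (7.09% higher and 6.02% lower). The interaction itself selected these 173 genes, so their directions in homeostasis and at 3 h are not further evidence for it.

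The further genes include SQSTM1, which encodes the autophagy receptor p62. It read 42.3, 42.9 and 42.8 CPM in siblings in homeostasis and 30.3, 53.2 and 38.1 at 3 h. Mutants had 34.4, 45.8 and 36.9 CPM and then 89.3, 110 and 83.3. Mutants at 3 h stood above all other libraries, and without sibling replicate 2 at 3 h the interaction was 1.62 ± 0.23 (SE, adjusted p = 0.011; 1.35 and 0.16 with all 12). OPTN, another autophagy receptor, was among the 173 as well and was named after its values were seen. It went from 37.9, 43.7 and 37.5 CPM to 107, 140 and 96 in mutants, and had 37.3, 36.2 and 47.7 and then 35.7, 45.5 and 39.7 CPM in siblings (1.65, adjusted p = 0.012 without the library; 0.074 with all 12). RAB7A (ENSDARG00000021287, a shared symbol), a GTPase of late endosomes, rose from 13.3, 12.1 and 12.4 to 36.7, 41.8 and 36.6 CPM in mutants, and siblings had 12.4, 11.9 and 11.3 and then 14.2, 19.3 and 15.3 (1.33, adjusted p = 0.012 without the library; 0.13 with all 12).

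DDIT3, a transcription factor of the integrated stress response also called CHOP, shows what the library left out does. Sibling values at 3 h were 78.4 CPM in replicate 1 and 194 in replicate 2, with replicate 3 the lowest of all 12 libraries, against 110, 106 and 98.2 in homeostasis. Replicate 2 was thus at the mutant level and the others below homeostasis. Mutants went from 104, 102 and 89.5 to 192, 190 and 167 CPM. The interaction was 1.43 ± 0.18 (SE, adjusted p = 0.0062) without the library and 0.77 (adjusted p = 0.64) with it. The integrated stress and unfolded protein response list of 45 genes had a median interaction of -0.09, and 0.20 without the library. Among its other members, cebpg, a partner of stress-induced bZIP factors, had an interaction of 0.89 and STC2 (ENSDARG00000056680, a shared symbol), a secreted glycoprotein, 1.46, both called without the library. ASNS, the asparagine synthetase gene, went the other way (-1.06, adjusted p = 0.047), with 60.4, 19.5 and 54.1 CPM in siblings at 3 h.

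Kinase and cytokine genes were also among the 173. PIM3, a serine/threonine kinase gene that is a known Stat3 target, rose in mutants from 58.3, 55 and 47.3 to 135, 119 and 112 CPM. Siblings had 71.5, 59.8 and 50 CPM and then 39.6, 65.8 and 39.1, with replicate 2 again apart. The interaction was 1.85 ± 0.23 (SE, adjusted p = 0.0062) without the library and 1.52 (adjusted p = 0.12) with it. For the leptin receptor gene lepr it was 2.05 (adjusted p = 0.03) without the library and 2.31 (adjusted p = 0.11) with it. ANKRD22, an ankyrin repeat gene, reached 77.3, 86.8 and 80.7 CPM in mutants at 3 h, where siblings had 14.3, 34.9 and 17 (2.39 ± 0.24 SE, adjusted p = 0.0017 without the library; 0.14 with it).

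Of 17 negative genes without that library, 6 were not called in siblings and fell in mutants, 4 rose in siblings and fell in mutants, and 4 rose in siblings and were not called in mutants. EBF1 (ENSDARG00000069196, a shared symbol), a transcription factor gene, stayed at 44.8, 47.8 and 44.5 and then 41.3, 57.9 and 36 CPM in siblings, and fell in mutants from 47.1, 50 and 46.9 to 19.8, 22.2 and 16.2. All mutant libraries at 3 h lay below the other 9 (-1.03 ± 0.19 SE, adjusted p = 0.03; -1.29 and 0.13 with all 12). The fibroblast activation protein gene fap fell from 98.2, 88.5 and 93.9 to 39.4, 40.3 and 34.8 CPM in mutants, with 88.7, 55.8 and 78.9 CPM in siblings at 3 h (-1.01, adjusted p = 0.024; 0.33 with all 12).

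MCAM, a cell adhesion gene, had the same form as ca4a. Siblings rose from 7.25, 4.59 and 4.05 to 19.5, 20.6 and 21.1 CPM, while mutants had 24.9, 33.5 and 24.9 in homeostasis and 24.8, 31 and 30.9 at 3 h. Mutants were thus already in homeostasis above the level that siblings reached after neomycin (interaction -1.85, adjusted p = 0.023 without the library; -1.89 and 0.068 with all 12). For ch25hl1.2, named for cholesterol 25-hydroxylase, siblings fell from 6.64, 6.34 and 6.86 to 0.4, 0.218 and 0.304 CPM, and mutants from 2.19, 2.68 and 2.59 to 0 in each library. No fold is given against a group without counts (adjusted p = 0.038 without the library; 0.11 with all 12).

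By list, the counts of called genes were small. Over all tested genes the median interaction was -0.14 with all 12 libraries and -0.01 without sibling replicate 2 at 3 h. With all 12 libraries 8832 of 22000 values were positive and 13168 negative. Without sibling replicate 2 at 3 h, 11082 of 22615 were positive and 11533 negative. The shares called were 0.105% and 0.84%. Each list here and below, with its counts of positive or negative members, is to be read beside these values. With DESeq2 size factors the median of all genes was -0.08. Of 37 lists, the highest median was that of 33 cholesterol synthesis genes, at 0.46 (27 positive, 0 called), and 0.65 without that library (2 of 34 called). In median these genes had a response of -0.37 in siblings and 0.15 in mutants. Among them insig1, which retains the sterol-sensing machinery in the endoplasmic reticulum, fell in siblings from 33.5, 28.4 and 41.6 to 15.5, 23 and 20 CPM and had 52.1, 59.3 and 53.3 and then 71.8, 91.8 and 83.7 in mutants. The genotypes did not overlap at either time, and its interaction was 1.58 (adjusted p = 0.018) without the library and 1.41 (adjusted p = 0.10) with it. The other called member, HSD17B7, fell in both genotypes (1.29, adjusted p = 0.034 without the library; 0.60 and 0.74 with it). The list total was 548, 608 and 556 CPM in siblings at 3 h and 833 to 1070 CPM in the other 9 libraries.

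**Figure D4:**
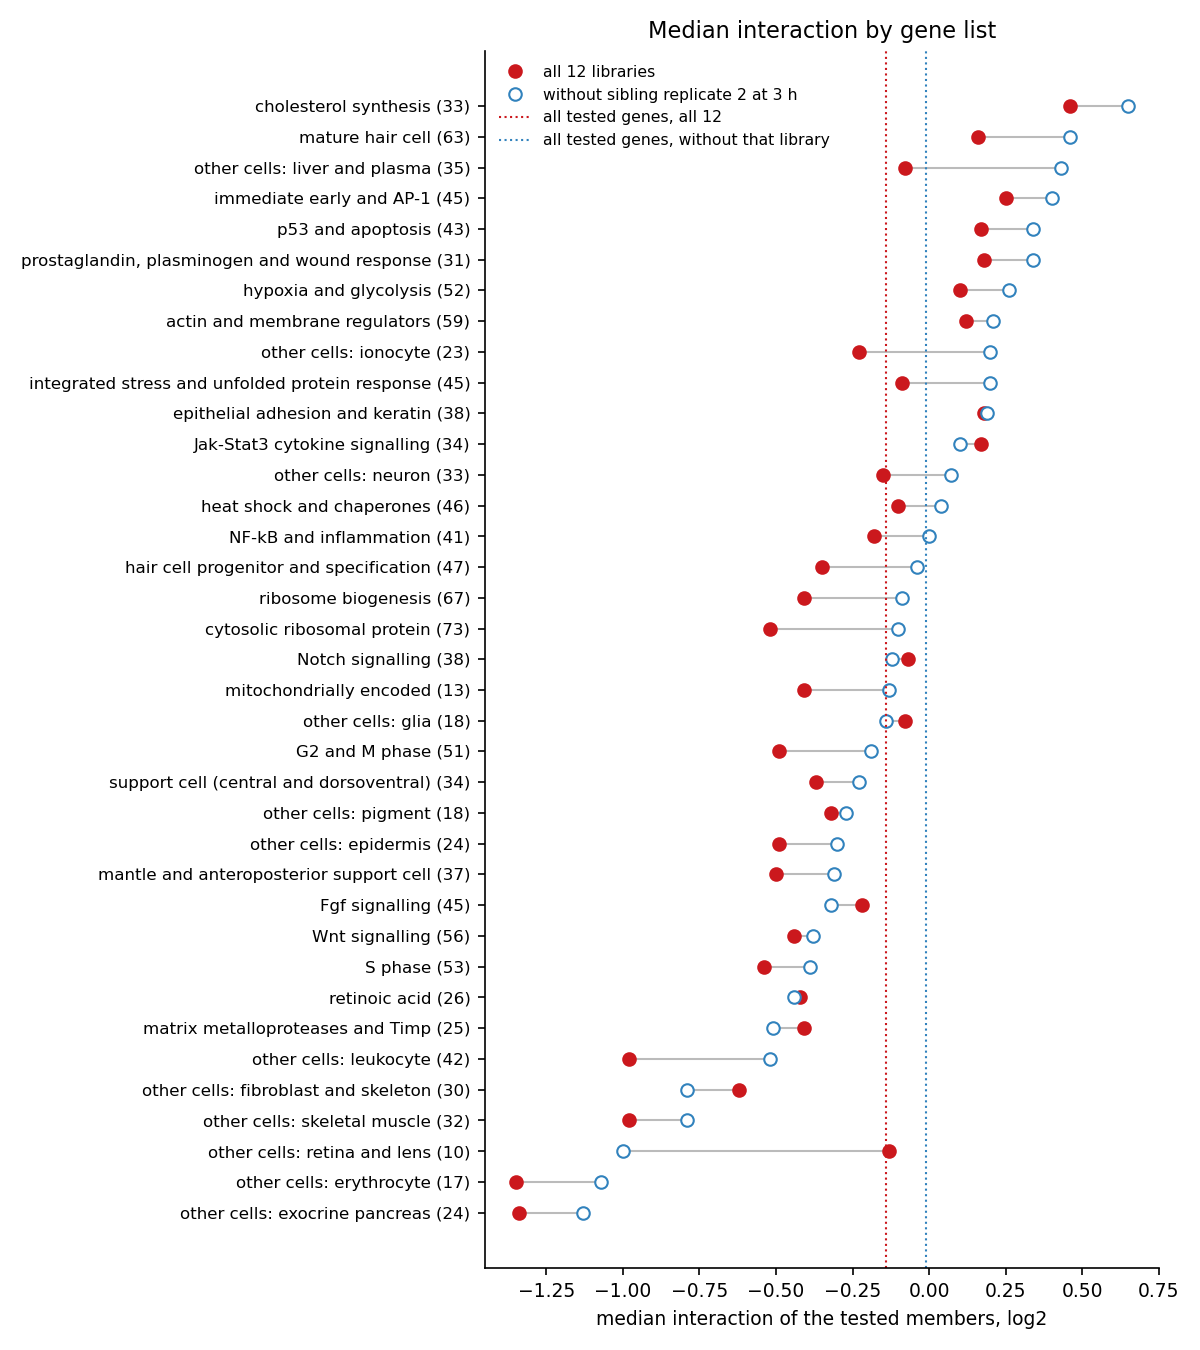
Median interaction (log2, x axis) of the tested members of each gene list (number of members in brackets) with all 12 libraries (filled) and without sibling replicate 2 at 3 h (open), with dotted lines at the medians of all tested genes, -0.14 and -0.01. Cholesterol synthesis is at the top with 0.46 and 0.65, and several lists of other cell types lie at the bottom.

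The 45 immediate early and AP-1 genes had a median interaction of 0.25 with 0 called, and 0.40 with 3 called without sibling replicate 2 at 3 h. Over all tested genes 0.105% and 0.84% were called. AP-1 is the dimer of Fos and Jun proteins that early injury signals induce. With all 12 libraries 13 of the 45 rose in siblings and 17 in mutants, against 11.2% and 6.95% of all tested genes. With 1 library left out the sibling count ranged from 8, without sibling homeostasis replicate 2, to 14. The mutant count ranged from 11, without mutant homeostasis replicate 2, to 25, without sibling replicate 2 at 3 h. Over all tested genes the rises in these named fits were 1324 in siblings, and 751 and 2924 in mutants. With all 12 libraries they were 2464 and 1530. JUN had 483, 329 and 435 CPM and then 255, 377 and 261 in siblings, and 638, 599 and 581 and then 731, 886 and 841 in mutants. The genotypes were separate at both times (interaction 1.16, adjusted p = 0.035 without the library; 0.92 and 0.35 with it). The early response gene ier2a and hbegfa, a ligand of the epidermal growth factor receptor, were the other called members, at 1.2 and 1.15. Summed over the list, mutants at 3 h had 5080, 5160 and 4850 CPM, above the 1810 to 3300 CPM of all other libraries.

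Of 59 actin and membrane regulators, PLEK2 was called with all 12 libraries, and PLEK2, actb1, CNN3 (ENSDARG00000099510, a shared symbol) and CNN2 without sibling replicate 2 at 3 h. Of all tested genes 0.105% were called with all 12 libraries and 0.84% without that one. The median interaction of the list was 0.12 and 0.21. The cytoplasmic actin gene actb1 held 1070, 1350 and 1460 and then 1230, 1530 and 1350 CPM in siblings and rose from 2310, 2820 and 2200 to 5980, 9340 and 6570 CPM in mutants. Mutants were above siblings at both times, with the larger gap at 3 h (interaction 1.61 ± 0.27 SE, adjusted p = 0.023 without the library; 1.49 and 0.12 with it). The calponin genes CNN3 and CNN2, which encode actin-binding proteins, had interactions of 1.12 and 1.2. The list total was 19600, 24600 and 21000 CPM in mutants at 3 h and 7620 to 12000 CPM in the other libraries. Of the treated mutant totals, actb1 alone gave 5980, 9340 and 6570 CPM. The list was chosen with earlier results of these data known, so its high total in mutants is not further evidence.

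The list of 43 p53 and apoptosis genes had 1 called member, BCL2, and 3 without sibling replicate 2 at 3 h. The shares of all tested genes called were 0.105% and 0.84%. Without that library bada, a pro-apoptotic gene of the Bcl2 family (1.56), and CASP9, the initiator caspase of the mitochondrial pathway (1.00), joined BCL2. Both had sibling replicate 2 at 3 h apart from the others, bada with 13.5, 43 and 17.1 CPM and CASP9 with 23.1, 55.3 and 27.5. The 52 hypoxia and glycolysis genes had a median interaction of 0.10, and 0.26 without sibling replicate 2 at 3 h. With all 12 libraries 1 was called, the negative ca4a. Without that library ca4a was called again, beside 2 positive members, HIF1A and ALDOC. HIF1A, the hypoxia-inducible transcription factor gene, fell in siblings from 975, 1070 and 878 to 445, 291 and 498 CPM. Mutants had 761, 824 and 623 and then 695, 720 and 746 CPM. Only the sibling libraries at 3 h lay below the rest (1.05, adjusted p = 0.043 without the library; 1.21 and 0.20 with all 12). The glycolytic aldolase gene ALDOC (ENSDARG00000019702, a shared symbol) fell in both genotypes and less in mutants (1.37 without the library; 1.05 with all 12, adjusted p = 0.31).

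Mature hair cell genes fell in both genotypes. Of 63 tested, 47 fell in siblings and 43 in mutants, against 10.8% and 9.56% of all tested genes, with median responses of -1.87 and -1.72, and 0 had a called interaction with all 12 libraries (median 0.16). The list total went from 47000, 40300 and 47100 CPM to 4620, 11100 and 3990 in siblings, and from 20300, 24400 and 19100 to 2810, 4010 and 2290 in mutants. Mutants had less than siblings in homeostasis, and sibling replicate 2 at 3 h held the most of any treated library. In such bulk samples, fewer cells of a type and less RNA per cell cannot be told apart. Without that library the median was 0.46 and 3 members were called, where 0.84% of all tested genes were. The called members were OSBPL1A, an oxysterol-binding protein gene, USH1C, which encodes the stereocilia scaffold harmonin, and lhfpl5b, a subunit of the mechanotransduction complex. OSBPL1A fell from 492, 432 and 410 to 51.8, 58 and 43.8 CPM in siblings and from 176, 198 and 158 to 41.1, 52.5 and 42.1 CPM in mutants, so that genotypes overlapped at 3 h and differed in homeostasis (1.27, adjusted p = 0.02; 1.14 and 0.14 with all 12).

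**Figure D5:**
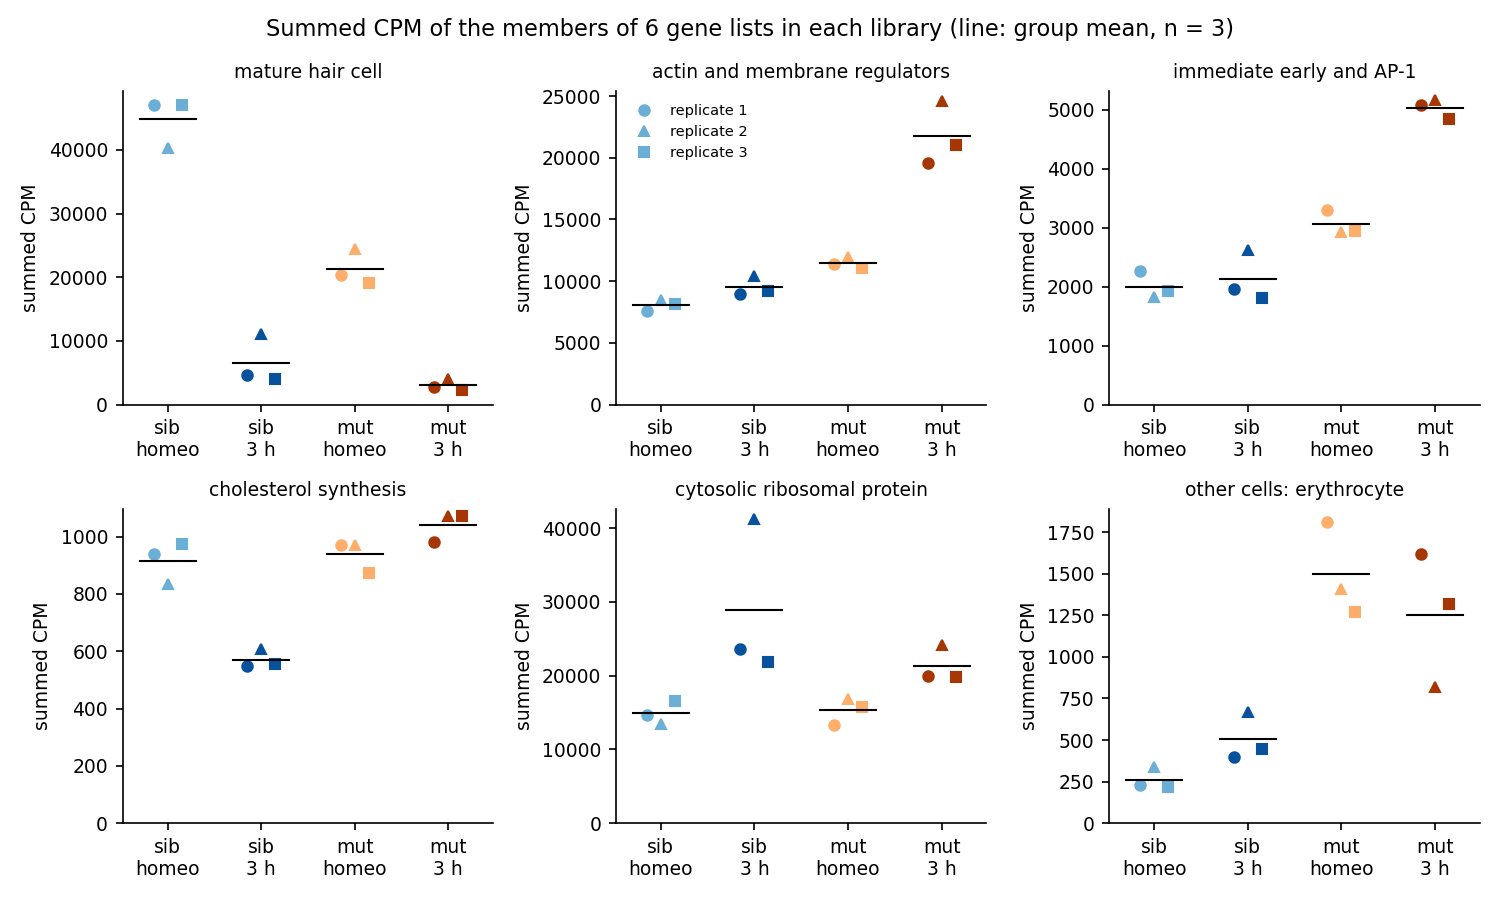
Summed CPM (y axis, from 0) of the members of 6 gene lists in each library by group, with replicate numbers as marker shapes and a line at the mean of 3. Mutant libraries at 3 h have the highest sums of actin and early response genes, siblings at 3 h the lowest sums of cholesterol synthesis genes, and sibling replicate 2 at 3 h stands above its group in mature hair cell and ribosomal protein genes. The lists were chosen with earlier results of these data known.

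Other lists showed few or no called interactions. Beside them, 0.105% of all tested genes were called with all 12 libraries and 0.84% without sibling replicate 2 at 3 h. Of 47 progenitor and specification genes, PRDM1 was called, and 0 members were called in either fit among central and dorsoventral support cell genes (34 tested with all 12 libraries), mantle genes (37), Notch (38), Wnt (56), Fgf (45) and retinoic acid genes (26), matrix metalloproteases and Timp genes (25). The medians of the lists with 0 called lay between -0.50 and -0.07, and between -0.51 and -0.12 without sibling replicate 2 at 3 h, while the progenitor list had -0.35 and -0.04. In the Wnt list, 45 of 56 values were negative, a larger share than the 13168 of 22000 over all tested genes. Without sibling replicate 2 at 3 h these counts were 46 of 57 and 11533 of 22615. The wound and prostaglandin list counted PLEK2 and PTGS2 among 31 members in both fits. Without that library the Jak-Stat3 list (35 tested) counted PIM3 and lepr, the list of NF-kB and inflammation genes (41 tested) counted the interferon regulatory factor gene IRF7 (1.34, adjusted p = 0.044), and the epithelial list (38 tested) counted the claudin gene cldn7a (2.33) and the keratin gene krt18a.1 (1.2). Of 46 heat shock and chaperone genes BAG3 was called, in a list of which 24 rose in siblings and 26 in mutants, against 11.2% and 6.95% of all tested genes. With 1 library left out the first count fell to 14 without sibling homeostasis replicate 1 and 16 without replicate 2. The second fell to 14 without mutant homeostasis replicate 2 and 16 without replicate 1. Over all tested genes the rises also fell in these fits, in siblings from 2464 to 1768 and 1324. In mutants they fell from 1530 to 751 and 786.

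Ribosomal lists moved with single libraries. The 73 cytosolic ribosomal protein genes had a median interaction of -0.52, with 72 negative and 0 called, and -0.10 without sibling replicate 2 at 3 h. With all 12 libraries 71 of them rose in siblings and 0 in mutants, against 11.2% and 6.95% of all tested genes. The median mutant response was nonetheless 0.48. Without that library 59 rose in siblings and 50 in mutants, against 9.2% and 12.9% of all tested genes. The count in siblings was 25 without homeostasis replicate 2 and 37 without homeostasis replicate 1. Over all tested genes the sibling rises also fell in these fits, from 2464 with all 12 libraries to 1324 and 1768. The median interaction of the list ranged from -0.70 to -0.10 with 1 library left out. The list total at 3 h was 23600, 41200 and 21900 CPM in siblings and 20000, 24200 and 19800 in mutants. Ribosome biogenesis factors, which process ribosomal RNA and assemble subunits, rose in both genotypes, 64 of 67 in siblings and 62 in mutants, with medians of 1.64 and 1.29, and 41 rose in mutants without mutant homeostasis replicate 2. In that fit 751 of all tested genes rose in mutants, against 1530 with all 12 libraries. The median interaction of the biogenesis factors was -0.41, and -0.56 to -0.09 with 1 library left out. S phase genes (53 tested, 50 negative) had a median of -0.54, and -0.39 without the library, and G2 and M phase genes (51 tested) -0.49 and -0.19, with 0 called in each.

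Markers of other cell types were read in all groups, and their medians were mostly below that of all genes. Erythrocyte genes (17 tested) had a median of -1.35, exocrine pancreas genes (24 tested, 24 negative) -1.34, skeletal muscle genes (32 tested) and leukocyte genes (42 tested, 37 negative) -0.98 each, and fibroblast and skeleton genes (30 tested, 29 negative) -0.62. Without sibling replicate 2 at 3 h these medians were -1.07, -1.13, -0.79, -0.52 and -0.79, in the same order with muscle before leukocytes. With any 1 library left out the medians ranged from -1.55 to -1.01 for erythrocyte, -2.34 (without sibling homeostasis replicate 2) to -0.65 (without mutant homeostasis replicate 3) for exocrine pancreas, -1.36 to -0.65 for skeletal muscle, -1.21 to -0.52 for leukocyte and -0.84 to -0.15 for fibroblast and skeleton genes. The fibroblast value of -0.15, with 12 positive and 18 negative members, was without sibling replicate 1 at 3 h. Epidermis genes had -0.49 and -0.30, pigment genes -0.32 and -0.27, ionocyte genes -0.23 and 0.20, neuron genes -0.15 and 0.07, glia genes -0.08 and -0.14, and liver and plasma genes -0.08 and 0.43. No member of these lists was called with all 12 libraries. In the fit without sibling replicate 2 at 3 h, vamp2 of the neuron list (36 tested) was a positive call. So was ATP6V0A1 (ENSDARG00000020847, a shared symbol) of the ionocyte list (23 tested). Over all tested genes 0.105% were called with all 12 libraries and 0.84% without that library. Erythrocyte genes summed to 220 to 335 CPM and then 399 to 666 CPM in siblings, and to 1270 to 1810 and then 819 to 1620 CPM in mutants. Leukocyte genes summed to 258 to 446 CPM in homeostasis and 1190, 2840 and 1140 at 3 h in siblings, and to 481 to 718 and then 1060, 1450 and 883 CPM in mutants. Their part in the interactions above was not tested. Without sibling replicate 2 at 3 h, gata1a, the erythroid transcription factor gene, was called (-2.86, adjusted p = 0.037; 0.086 with all 12), with 1.15, 1.19 and 0.475 and then 2.93, 3.8 and 5.68 CPM in siblings and 10.5, 6.95 and 6.1 and then 5.26, 3.96 and 5.12 in mutants. As for ca4a and MCAM, siblings rose toward a level that mutants already had in homeostasis. For gata1a the mutant libraries also read lower at 3 h than in homeostasis, without overlap, though this response was not called.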

How the data were processed

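For the 12 RNA-seq libraries the authors deposited raw counts of reads for each Ensembl gene ID, in whole numbers and not normalized. Libraries were made with the SMART-Seq v4 kit, per the labels' protocols; that kit does not mark strand, so overlapping genes cannot be separated. STAR 2.7.3a, bcl2fastq 2.18, RSEM, Bowtie2 and danRer11 are named, with no role or order, per the submitters' processing notes. Entries that name no gene held 28.2% to 35.2% of reads and were left out. Reads mapping to several places are among these, which makes near-identical paralogs uncertain. No molecular identifiers were used, and PCR copies are counted.

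Symbols came from a name table (29201 of 32520 IDs) that often gives human-style names; a symbol that several IDs share is printed with its ID. Genes were kept with filterByExpr over the 4 groups, scaled by TMM and fitted with edgeR 4.0.16 (R 4.3.3) with a mean per group over all 12 libraries. The interaction and both responses were tested with the two-sided quasi-likelihood test and Benjamini-Hochberg adjustment over all tested genes, and a gene is said to be called, or to rise or fall, when its adjusted p was under 0.05. All adjusted p-values are from this test unless another is named. Fold changes are log2, with standard errors from the F statistic, and the method was tested on simulated data. Alternatives were DESeq2 1.42.0, its size factors in edgeR, limma-voom (limma 3.58.1), no low-count filter, the replicate number as a block, and each library left out. No pair of replicates agreed within counting noise, by chi-square over genes with 20 or more counts.

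The comparison, members and 37 gene lists were chosen with earlier results of these data known. Of 1359 list names, 1001 matched a symbol exactly, 291 by stem and 67 not at all. Named genes were up to 15 per direction with the smallest adjusted p, an absolute interaction of at least 1 and an informative symbol, then up to 10 further per direction without sibling replicate 2 at 3 h, and up to 4 called members per list. Not every gene so chosen is printed. Certain results are not reported here.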

Additional observations from a re-analysis of the deposited data

Results flagged for a closer look

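The responses of both genotypes differed by the test of the difference itself in 23 genes, with edgeR's quasi-likelihood test and all 12 libraries. In the order of the adjusted p, the interactions were 3.23 for PLEK2, 3.50 for PTGS2 (ENSDARG00000010276), 2.45 for ACSBG2, 2.72 for ppp1r15b, 1.77 for F2RL1 (ENSDARG00000077540), 2.38 for BCL2, 2.04 for IRAK3 and 2.17 for hap1. They were 2.09 for si:ch211-129c21.1, 3.97 for cyp3c3, 1.55 for RHPN2, 1.70 for GTPBP1 (ENSDARG00000053467), 1.54 for SLC38A3 (ENSDARG00000027065), 1.82 for rapgef3, 1.59 for PRDM1 and 2.96 for coro2ab. The remaining values were 1.53 for tmcc1b, 1.62 for pard6a, 1.73 for ptpdc1a, -2.81 for ca4a, 2.28 for atp2b3b, 1.83 for BAG3 and 1.82 for UGCG. No reason for these differences was tested.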

How the results depend on the processing

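The number of called interactions depended on the libraries and the tool. With any 1 library left out, positive calls ranged from 3 to 173 and negative calls from 0 to 17, against 22 and 1 with all 12. DESeq2 called 271 positive and 64 negative genes among 18166 with an adjusted p. DESeq2 size factors in edgeR gave 22 and 0, limma-voom 19 and 0, and no filter on low counts 23 and 2. Without both 3 h libraries numbered 2, the counts were 220 and 16. At an unadjusted p under 0.05, edgeR gave 1955 genes in either direction, limma-voom 1955 and edgeR with DESeq2 size factors 1936. In mutants, genes called higher after neomycin numbered 1530 with all 12 libraries, 2320 with DESeq2, 2620 without both 3 h libraries numbered 2, and 751 to 2924 with 1 library left out. Genes called lower in mutants numbered 2104, and 1375 to 3223 with 1 left out. In siblings, higher calls numbered 2464, and 1324 to 2731 with 1 left out, the fewest without homeostasis replicate 2. Lower calls in siblings numbered 2367, and 1736 to 2955. With the replicate number as a block, 14 positive and 2 negative interactions were called. Of the 23 genes called with all 12 libraries 14 kept their call, and SLC38A3, rapgef3, PRDM1, tmcc1b, pard6a, ptpdc1a, ca4a, atp2b3b and UGCG had adjusted p-values of 0.052 to 0.072 (edgeR). The labels do not say what a number shares, so the numbers were not taken as pairing. Of 18 pairs of same-numbered libraries, 9 had a correlation over 0.1 (range -0.0586 to 0.46). Among them were the 3 mutant and sibling pairs at 3 h, with 0.302, 0.46 and 0.192. Whether same-numbered libraries share a clutch or day was not tested. The cause of these changes was not tested. For single genes and all alternatives, 1573 values stayed on their side of the threshold, 28 of them with a changed sign in 12 genes that were not called, while 114 passed it where the full fit did not, 131 lost it, and 0 called values changed sign. With 3 libraries a group the median standard error was 0.47, and no interaction smaller than 1.53 was called with all 12.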

Other observations

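A few further genes, chosen after their values were seen, also rose in mutants in the fit without sibling replicate 2 at 3 h. EFHD2, a calcium-binding actin regulator, went from 44.4, 41.5 and 43.9 to 177, 160 and 177 CPM in mutants and from 21.4, 25.4 and 20.1 to 34.6, 25 and 38 in siblings (interaction 1.32, adjusted p = 0.012 without sibling replicate 2 at 3 h; 1.44 and 0.074 with all 12). The kit ligand gene kitlgb went from 1.99, 1.21 and 1.05 to 10.7, 13.5 and 10.8 CPM in mutants, with 1.44 to 2.37 and then 2.17, 4.93 and 2.16 in siblings (2.87, adjusted p = 0.014; 0.16 with all 12). ALAS1, the first enzyme of haem synthesis, went from 269, 285 and 207 to 466, 708 and 495 CPM in mutants and from 260, 186 and 247 to 146, 177 and 153 in siblings (1.79, adjusted p = 0.016; 0.082 with all 12).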
